A study of Homo sapiens with 12 samples.

Results

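The genes described here are 35 named transcripts of the antioxidant programme under NRF2, with the glutathione, thioredoxin, iron storage and pentose phosphate enzymes that work beside it. They were chosen by symbol, with earlier results of these data known. All 35 were found by their Ensembl identifiers among the 61860 genes of one count table and the 62700 genes of the other. By role they are 3 regulators, 6 genes of glutathione synthesis and recycling, 6 glutathione transferases and peroxidases, 4 thioredoxin and peroxiredoxin genes, 5 quinone, carbonyl, epoxide and glucuronate enzymes, 4 genes of heme breakdown and iron storage, 4 of the pentose phosphate route and malic enzyme, and 3 other NRF2 targets.

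NRF2, the product of NFE2L2, is a transcription factor that KEAP1 holds in the cytoplasm and presents for degradation. Electrophiles and oxidants modify KEAP1, NRF2 then accumulates, pairs with a small MAF protein such as MAFG, and binds the antioxidant response element upstream of its targets. Those targets make glutathione, reduce thioredoxin, store iron, detoxify quinones and supply NADPH. Glutathione can bind cisplatin, and NRF2 itself is set mainly at the level of the protein, which RNA counts do not measure.

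The cells were RT4, a line long established from a human bladder tumour, and 6 RNA libraries were sequenced in each of 2 experiments. In the first, 3 libraries came from cells given a Flag-ITGB4 plasmid that encodes ITGB4, an integrin subunit of hemidesmosomes, and 3 from cells given the Flag empty vector. In the second, 3 libraries came from a cisplatin-resistant RT4 line under cisplatin treatment and 3 from parental RT4 cells under PBS, both labelled wild type. Drug treatment goes with the line there, so the line's resistance and the presence of cisplatin cannot be told apart, and no dose, time or number of clones is given. The medium was McCoy's 5A in the first experiment and MEM in the second. All titles of the first experiment name ITGB4, but another label names ITGB5 for replicate 2 and ITGB6 for replicate 3 of each group there. The parental columns are headed NC, a word that the vector titles hold and no parental title does, so they were identified by inference, and their libraries are named a, b and c here.

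Promoter sequence shows which of these genes carry the letters of the antioxidant response element close to a start. RefSeq windows of GRCh38.p14, running from 250 bases before to 50 bases after a gene's start, were held for 29 of the 35 genes in 39 windows. The element's core, TGACNNNGC, was searched on both strands. It was present in a window of 12 of the 29 genes (41.4%), against 4384 of 27305 genes with a window (16.1%). By window the shares were 13 of 39 (33.3%) and 13.3% of all 35116. The 12 genes were GCLM, PGD, ME1, TXNRD1, GPX2, EPHX1, MGST1, KEAP1, CBR1, GGT1, GSTP1 and PIR. Spelled on the strand that matches, the core read TGACTAAGC in GCLM, TGACATTGC in PGD, TGACTTAGC in GPX2, TGACTTCGC in TXNRD1 and TGACTCAGC in ME1, GSTP1 and PIR. A match is a description of the letters and not a bound site, and a gene without one may hold it outside the window.

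The 250 bases before the start of 4 genes are given as examples of the core in genes that fell over 1.5-fold in at least one experiment, chosen among windows that hold little exon sequence, with the matched bases in capitals. EPHX1 meets the same terms and is not shown. All are written 5′ to 3′ along the gene's own strand, in RefSeq's GRCh38.p14. They lie at chr1:93909431-93909680 (minus strand) for GCLM, chr1:10398814-10399063 (plus strand) for PGD, chr6:83431052-83431301 (minus strand) for ME1 and chr12:104215529-104215778 (plus strand) for TXNRD1.
GCLM: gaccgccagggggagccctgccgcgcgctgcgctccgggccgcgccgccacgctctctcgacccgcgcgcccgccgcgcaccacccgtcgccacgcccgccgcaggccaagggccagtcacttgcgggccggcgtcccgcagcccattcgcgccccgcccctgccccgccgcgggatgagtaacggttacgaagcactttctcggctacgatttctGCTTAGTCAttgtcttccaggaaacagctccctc
PGD: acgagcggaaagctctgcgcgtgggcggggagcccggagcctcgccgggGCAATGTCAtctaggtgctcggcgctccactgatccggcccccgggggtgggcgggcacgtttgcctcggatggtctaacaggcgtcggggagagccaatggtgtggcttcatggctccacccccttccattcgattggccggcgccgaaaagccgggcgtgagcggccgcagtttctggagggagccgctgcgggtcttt
ME1: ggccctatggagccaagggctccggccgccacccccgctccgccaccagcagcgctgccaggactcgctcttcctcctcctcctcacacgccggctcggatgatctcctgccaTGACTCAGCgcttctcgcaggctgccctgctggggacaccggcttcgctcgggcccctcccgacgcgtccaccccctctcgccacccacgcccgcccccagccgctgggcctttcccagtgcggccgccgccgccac
TXNRD1: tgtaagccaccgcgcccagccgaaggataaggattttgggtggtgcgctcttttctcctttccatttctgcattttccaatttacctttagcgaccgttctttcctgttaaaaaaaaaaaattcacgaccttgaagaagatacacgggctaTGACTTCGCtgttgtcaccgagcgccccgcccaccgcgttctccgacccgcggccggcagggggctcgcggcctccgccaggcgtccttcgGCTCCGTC
In GCLM and PGD the core lies on the opposite strand, so it is read in reverse complement, starting 34 and 201 bases before the start. In ME1 it lies 137 bases before the start on the gene's strand, and a second match lies after the start. TXNRD1 has a first match 99 bases before the start and a second that begins 8 bases before it and runs past it. In GENCODE 29 the last 26 bases of the GCLM run and the last 20 of the ME1 run already belong to an exon. In the PGD run 20 bases do, at a place that was not recorded, and in the TXNRD1 run none does. GENCODE 29 starts PGD at 10398592, before its run, so that run and its core lie inside the annotated gene. TXNRD1 has a second window with the core. Gene counts do not tell which start of PGD or TXNRD1 was used.

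Depth was 22701466 to 31816875 counts per plasmid library and 25864229 to 33352045 per vector library, and 31824582 to 36284997 per resistant library and 35017033 to 38199946 per parental library. Values are CPM, gene counts scaled to a common library total with TMM factors. A gene was called changed when its adjusted p in edgeR's quasi-likelihood test was under 0.05, and ± after a log2 fold change is its approximate standard error. ITGB4 stood at 1485, 1379 and 1416 CPM in the plasmid libraries and 858, 879 and 871 CPM in the vector libraries, a log2 fold change of 0.71 ± 0.026 (adjusted p = 2.22e-13), and at 848, 831 and 832 CPM in the resistant and 602, 598 and 600.3 CPM in the parental libraries (log2 0.48 ± 0.033, adjusted p = 1.45e-09). Of 14 urothelial markers, 12 were over 1 CPM in each group and KRT20 was at 0 and UPK1A under 1 CPM in all. Their summed level was 6812 to 7267 CPM with the plasmid and 5063 to 5250 CPM with the vector, and 7844 to 9059 CPM in resistant and 7509 to 7592 CPM in parental libraries. KRT7, KRT8 and KRT19 were the largest terms of these sums, and the markers did not move as one. With the plasmid UPK2, UPK3A and EPCAM were called lower, FOXA1 and CDH1 were not called, and the others tested were called higher. In resistant cells UPK1B, GATA3, PPARG, FOXA1 and CDH1 were called lower. KRT19 and EPCAM were not called there, and the others tested were called higher. None of 10 blood cell markers passed 1 CPM in any group. Of 8 fibroblast and muscle markers, 3 passed it in plasmid and in vector libraries and 2 in resistant and in parental libraries, with sums of 29.3 to 32.1 CPM (plasmid) and 51.0 to 55.0 CPM (vector), and of 6.97 to 8.04 CPM (resistant) and 12.7 to 13.2 CPM (parental). With the plasmid COL3A1 was lower (18.2 against 45.9 CPM with the vector), while COL1A1 (6.89 against 4.05 CPM) and ACTA2 (5.48 against 3.14 CPM) were higher. In resistant cells COL1A1 was lower (4.67 against 11.7 CPM in parental cells) and ACTA2 higher (2.51 against 1.12 CPM). COL3A1, under 1 CPM there, was called higher. Of 5 endothelial markers 1 passed 1 CPM in each group, and KDR was at 0. The part of these marker differences in the results was not tested.

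With the ITGB4 plasmid most of the NRF2 and glutathione genes fell, and GCLC, the catalytic subunit of the enzyme that limits glutathione synthesis, fell the most. Of 34 members tested, 23 were called lower and 8 higher, and 3 were not called. Over all 16950 genes tested, 72.2% were called, 35.7% lower and 36.5% higher. The members' median log2 fold change was -0.39, with a range of -1.80 to 0.61, beside a median of 0.00 over all genes. A change over 1.5-fold was called for 11 members, all lower, against 11.4% of all genes lower and 11.1% higher. The groups' libraries did not overlap in any of the 31 called members, a separation that 74.5% of all genes tested showed. Summed over the members, the level was 12377 to 12805 CPM in plasmid libraries and 18305 to 18369 CPM in vector libraries. In bulk RNA, fewer cells that express a gene and less of its RNA per cell cannot be told apart, and no label says whether the replicates are separate cultures, so that p-values take in no more than how far these libraries spread.

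**Figure D1:**
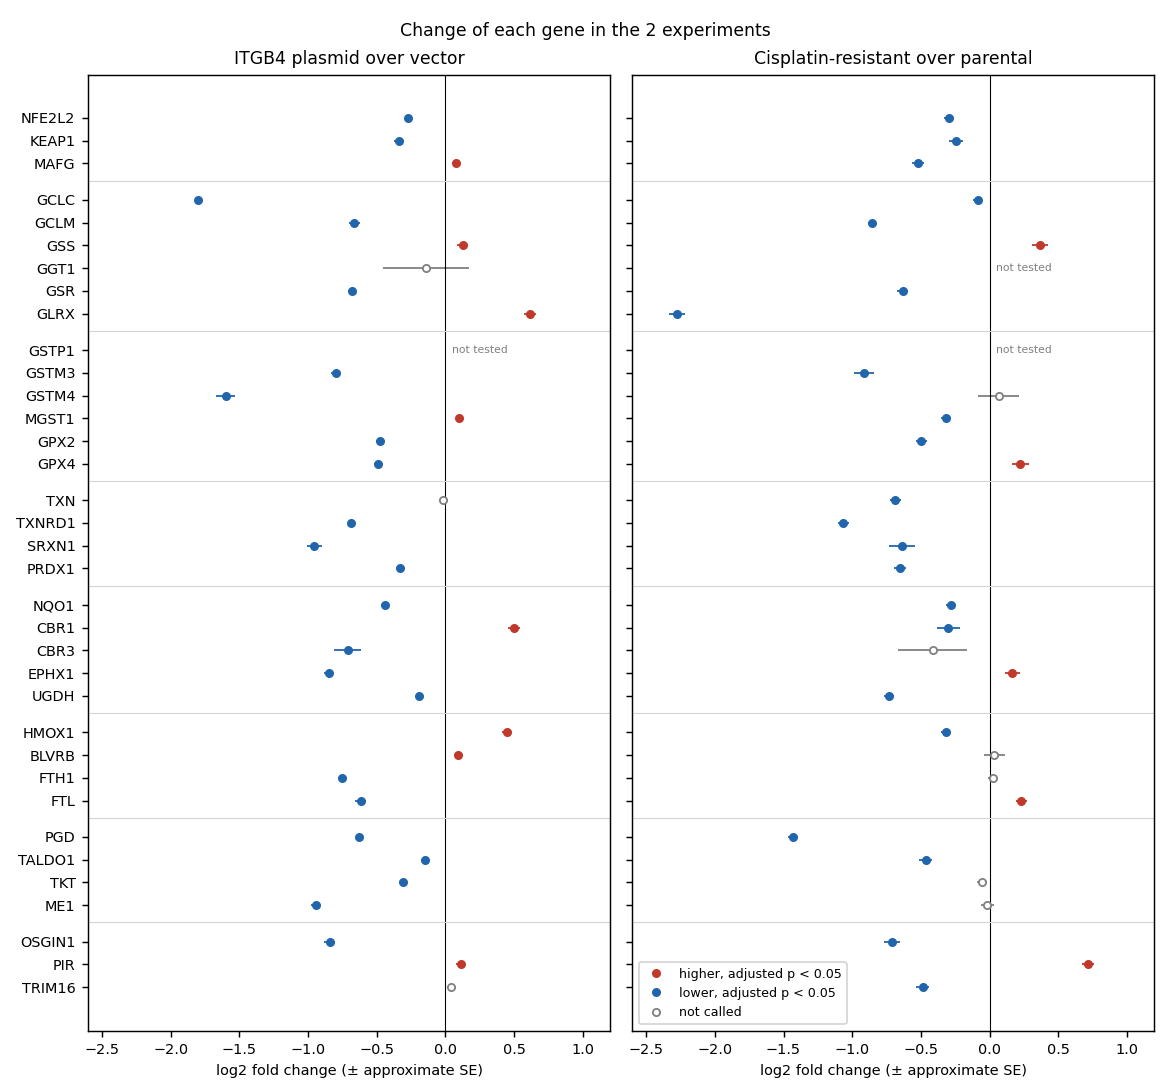
Log2 fold change of each gene (points, with bars for the approximate standard error), ITGB4 plasmid over vector on the left and resistant over parental on the right, n = 3 libraries a group, with genes grouped by role and open points for genes not called. Of the members, 23 were called lower on the left and 22 on the right, GCLC lies farthest left with the plasmid and GLRX farthest left with resistance, and the small lower call of GCLC with resistance becomes a log2 fold change of 0.08 when libraries are scaled by size alone.

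Among the regulators, both the factor and its inhibitor fell slightly with the plasmid. NFE2L2 (chromosome 2, 177227595 to 177392697) had 356, 360.3 and 358 CPM in plasmid libraries, against 426, 435 and 436 CPM in vector libraries, a log2 fold change of -0.27 ± 0.024 (adjusted p = 2.07e-08). KEAP1 (chromosome 19, 10486120 to 10503741) had 63.6, 59.5 and 60.7 CPM in plasmid and 76.8, 77.0 and 78.0 CPM in vector libraries, a change of -0.34 ± 0.034 (adjusted p = 1.2e-07). MAFG was called higher by a small amount, at 149 ± 1.45 CPM with the plasmid and 141 ± 4.11 CPM with the vector (SD, n = 3 each; log2 0.08 ± 0.029, adjusted p = 0.0225), and this call was lost under several other settings.

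The 2 subunits of glutamate-cysteine ligase, which joins glutamate to cysteine in the first step of glutathione synthesis, fell by unequal amounts. GCLC (chromosome 6, 53497341 to 53616970, minus strand) had 541, 536 and 539 CPM in plasmid libraries, against 1891, 1859 and 1867 CPM in vector libraries. The lowest vector library was thus more than 3 times the highest plasmid library, and the log2 fold change was -1.80 ± 0.021 (adjusted p = 1.49e-19), a level 3.48-fold lower with the plasmid. GCLM (chromosome 1, 93885205 to 93909456, minus strand), the modifier subunit, had 592, 676 and 683 CPM with the plasmid and 1042, 1016 and 1034 CPM with the vector, a change of -0.66 ± 0.039 (adjusted p = 1.33e-10). Per kb of exon, GCLC was 0.521 ± 0.045 times GCLM in plasmid libraries and 1.14 ± 0.0074 times in vector libraries (SD, n = 3), so the order of the 2 subunits on this scale was opposite in the 2 groups. Which subunit is higher rests on the exon lengths used, and the change in the ratio between groups does not.

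The later steps did not move as one. GSS, which adds glycine to finish glutathione, was called slightly higher, at 71.3 ± 2.86 CPM with the plasmid and 65.2 ± 2.62 CPM with the vector (log2 0.13 ± 0.039, adjusted p = 0.00815). GSR, which regenerates reduced glutathione with NADPH, had 388, 389 and 382 CPM in plasmid and 621, 610.1 and 627 CPM in vector libraries, lower by 1.60-fold with no overlap (log2 -0.68 ± 0.024, adjusted p = 9.41e-14). GLRX (chromosome 5, 95751319 to 95823005, minus strand), a glutaredoxin that uses glutathione to remove glutathione from protein thiols, went the other way. Its values were 54.1, 52.3 and 50.9 CPM in plasmid libraries and 31.9, 35.2 and 35.2 CPM in vector libraries, and its log2 fold change of 0.61 ± 0.044 (adjusted p = 1.57e-09) was the largest increase among the members. GGT1, which cleaves extracellular glutathione, had 72 counts over the 6 libraries and was not called (log2 -0.14 ± 0.31, adjusted p = 0.718).

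Of the glutathione transferases among the members, GSTM4 fell the most, to 7.90, 8.30 and 9.48 CPM with the plasmid, against 25.3, 25.8 and 27.2 CPM with the vector (log2 -1.60 ± 0.068, adjusted p = 1.39e-12). GSTM3 had 35.3, 34.3 and 35.7 CPM in plasmid and 60.2, 60.8 and 62.3 CPM in vector libraries (log2 -0.80 ± 0.036, adjusted p = 3.71e-12). Both belong to a family of close paralogs whose reads can be hard to assign. MGST1, a membrane-bound transferase, was 1.07-fold higher with the plasmid (686 ± 5.27 CPM) than with the vector (640.2 ± 8.62 CPM; adjusted p = 0.000857). Both peroxidases fell: GPX2, the gastrointestinal type, stood at 589 ± 21.2 CPM with the plasmid and 818 ± 16.3 CPM with the vector, and GPX4, which reduces lipid hydroperoxides in membranes, at 138 ± 7.22 CPM with the plasmid and 194 ± 3.90 CPM with the vector. The log2 fold change was -0.47 ± 0.027 for GPX2 (adjusted p = 9.43e-11) and -0.49 ± 0.034 for GPX4 (adjusted p = 1.23e-09).

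GSTP1, an abundant transferase in many epithelia, is listed at 0 in all 12 libraries of both experiments. HMOX2, a widely used heme oxygenase, also has only 2 counts in each table, and whether such values reflect the cells or the counting was not tested. GSTP1 therefore has no fold change. NDUFV1, its neighbour in the genome, had at least 1544 counts in every library of the first experiment and 2038 in every library of the second.

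In the thioredoxin branch, thioredoxin itself was not called with the plasmid, while its reductase, SRXN1 and PRDX1 fell. TXN, thioredoxin itself, stood at 292, 298 and 299.8 CPM in plasmid libraries and 285, 308 and 305 CPM in vector libraries, which overlapped (log2 -0.01 ± 0.030, 95% interval -0.08 to 0.05, adjusted p = 0.702). TXNRD1 (chromosome 12, 104215779 to 104350305, plus strand), the NADPH-dependent reductase that recharges it, had 1509.7, 1551 and 1513 CPM with the plasmid and 2450.3, 2478 and 2439.7 CPM with the vector. Its log2 fold change was -0.69 ± 0.021 (adjusted p = 1.42e-14), with wide separation of the groups. SRXN1, which repairs overoxidised peroxiredoxins, had 18.1, 15.6 and 17.4 CPM with the plasmid and 31.5, 32.6 and 34.5 CPM with the vector (log2 -0.95 ± 0.058, adjusted p = 1.67e-10), but 85.0% of its exon bases lie also in the exons of AL121758.1 on the same strand. PRDX1, a peroxiredoxin that removes hydrogen peroxide, fell less, with 622 ± 27.4 CPM (plasmid) and 783 ± 16.7 CPM (vector) (log2 -0.33 ± 0.030, adjusted p = 2.58e-08). Per kb of exon, TXNRD1 was 0.875 times TXN in plasmid libraries and 1.40 times in vector libraries.

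Of the 5 quinone, carbonyl, epoxide and glucuronate members, 4 fell. NQO1, the quinone reductase often read as a marker of NRF2 activity, had 663, 636 and 624 CPM in plasmid and 859, 871 and 878 CPM in vector libraries (log2 -0.44 ± 0.025, adjusted p = 9.07e-11). EPHX1, microsomal epoxide hydrolase, had 157, 144 and 146 CPM in plasmid and 264, 273 and 266 CPM in vector libraries, a 1.80-fold fall (log2 -0.85 ± 0.032, adjusted p = 2.95e-13). UGDH, which makes UDP-glucuronate, fell only 1.14-fold, to 655 ± 11.6 CPM, against 749 ± 7.16 CPM with the vector (adjusted p = 9.89e-07). The carbonyl reductases, neighbours on chromosome 21, parted: CBR1 was higher, at 55.4, 53.2 and 53.2 CPM with the plasmid and 39.5, 38.7 and 36.3 CPM with the vector (log2 0.50 ± 0.040, adjusted p = 7.06e-09). CBR3 was lower, at 3.95, 3.83 and 4.09 CPM with the plasmid and 7.07, 6.37 and 6.07 CPM with the vector (log2 -0.71 ± 0.099, adjusted p = 6.18e-06). Exons of CBR1 and CBR3 overlap antisense genes over 18.9% and 42.2% of their bases, and the counts of this experiment do not use strand.

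Among the heme and iron genes, HMOX1 rose with the plasmid and both ferritin chains fell. HMOX1 (chromosome 22, 35380361 to 35394214, plus strand), the inducible heme oxygenase that frees iron from heme, had 498, 454 and 461 CPM in plasmid libraries and 340.3, 355 and 341 CPM in vector libraries, higher in every plasmid library (log2 0.45 ± 0.032, adjusted p = 1.85e-09). BLVRB, a biliverdin reductase, differed by a log2 fold change of 0.09 ± 0.034 (adjusted p = 0.0197), a higher call lost under several settings. Ferritin heavy and light chains form the shell that stores iron. The heavy chain, FTH1, had 1679, 1484 and 1577 CPM with the plasmid and 2696, 2575 and 2694 CPM with the vector (log2 -0.75 ± 0.034, adjusted p = 3.49e-12). The light chain, FTL, had 808, 693 and 762 CPM with the plasmid and 1128, 1191 and 1145 CPM with the vector (log2 -0.62 ± 0.040, adjusted p = 4.36e-10). Reads may be shared with 25 named pseudogenes of FTH1 and 16 of FTL, and 62.4% of the exon bases of FTH1 lie opposite BEST1.

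All 4 members of the pentose phosphate and malic enzyme group fell. ME1, cytosolic malic enzyme, had 71.9, 74.5 and 72.8 CPM in plasmid and 144, 139 and 138 CPM in vector libraries, a 1.92-fold fall (log2 -0.94 ± 0.031, adjusted p = 4.9e-14). PGD (chromosome 1, 10398592 to 10420144, plus strand), an NADPH-producing dehydrogenase of the route, had 359.6, 347 and 356 CPM with the plasmid and 543, 552 and 547 CPM with the vector (log2 -0.63 ± 0.024, adjusted p = 3.77e-13). TKT and TALDO1, the transketolase and transaldolase of its non-oxidative arm, fell less, by 1.24-fold and 1.11-fold (adjusted p = 8.67e-08 and 0.000205). Among the other targets, OSGIN1, an oxidative stress induced growth inhibitor, had 50.2, 44.6 and 45.3 CPM with the plasmid and 82.6, 84.8 and 82.9 CPM with the vector (log2 -0.84 ± 0.040, adjusted p = 7.16e-12). PIR, an iron-binding nuclear protein, was called higher, at 72.5, 69.3 and 71.4 CPM with the plasmid and 66.4, 65.8 and 65.0 CPM with the vector (log2 0.11 ± 0.032, adjusted p = 0.00535). TRIM16, a ubiquitin ligase of the tripartite motif family, had 84.0 ± 2.66 CPM with the plasmid and 81.4 ± 0.806 CPM with the vector and was not called (adjusted p = 0.255).

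**Figure D2:**
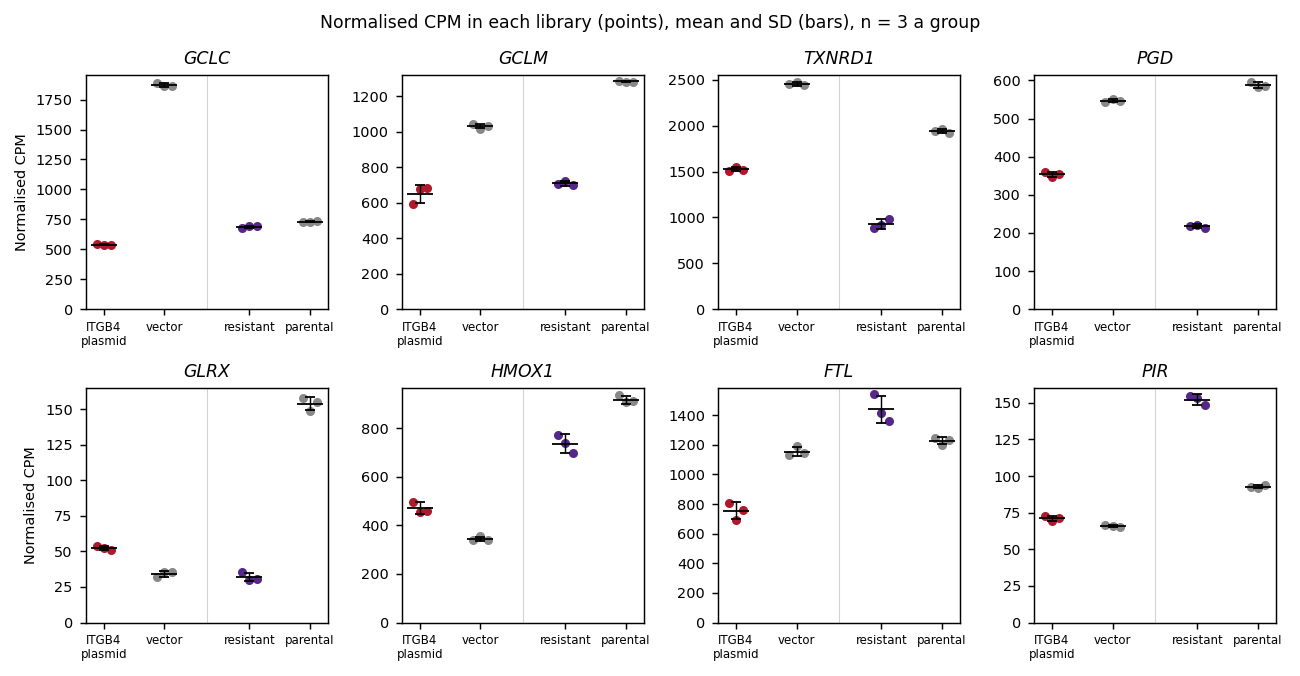
Normalised CPM (y axis, from 0) of 8 genes in each library (points), with the mean and SD of each group (bars, n = 3), for ITGB4 plasmid, vector, resistant and parental libraries from left to right. GCLC fell far with the plasmid and little with resistance, PGD and TXNRD1 fell further with resistance, and GLRX and HMOX1 were higher with the plasmid and lower with resistance.

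In the cisplatin-resistant cells most of these genes were again lower, led by GLRX, PGD and TXNRD1, while PIR rose the most. Of 33 members tested, 22 were called lower and 5 higher, and 6 were not called. Over all 16875 genes tested, 54.5% were called, 27.7% lower and 26.8% higher. The members' median log2 fold change was -0.32, with a range of -2.28 to 0.71, beside 0.02 over all genes. A change over 1.5-fold was called lower for 8 members and higher for 1, PIR, against 6.31% and 6.17% of all genes. The groups did not overlap in 27 members, against 60.8% of all genes. The split between directions rests in part on the scaling: with library size alone 19 members were called lower and 9 higher, the median over all genes moved to 0.18, and the share of all calls that were lower was 32.2%, against 50.9% with TMM. Summed over the members, the level was 14211 to 15215 CPM in resistant libraries and 18479 to 18793 CPM in parental libraries. The resistant libraries differed more among themselves than those of any other group, with a chi-square per degree of freedom of 12.2 between replicates 1 and 3.

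All 3 regulators among the members were lower in the resistant cells. NFE2L2 had 395, 407 and 408 CPM in resistant libraries and 489, 496 and 500.3 CPM in parental libraries (log2 -0.30 ± 0.036, adjusted p = 1.74e-06). KEAP1 had 76.5, 70.0 and 73.4 CPM in resistant and 86.4, 86.0 and 87.7 CPM in parental libraries (log2 -0.24 ± 0.050, adjusted p = 0.000482), a call lost with library size alone. MAFG had 146, 148 and 151 CPM in resistant and 211, 211 and 217 CPM in parental libraries, the largest fall of the 3 (log2 -0.52 ± 0.041, adjusted p = 7.3e-09).

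In glutathione synthesis the modifier subunit fell and the catalytic subunit changed far less. GCLM had 706, 723 and 697 CPM in resistant libraries, against 1286, 1281 and 1279.5 CPM in parental libraries, a 1.81-fold fall (log2 -0.86 ± 0.032, adjusted p = 5.3e-13). GCLC had 676, 693 and 694 CPM in resistant and 730.1, 725 and 735 CPM in parental libraries, with no overlap but a log2 fold change of only -0.09 ± 0.033 (adjusted p = 0.0367). That call was lost in 4 of the 6 fits that left out a library and turned to 0.08, not called, with library size alone. Per kb of exon, GCLC was 0.609 ± 0.014 times GCLM in resistant and 0.357 ± 0.0027 times in parental libraries (SD, n = 3). GSS was higher, at 103, 94.2 and 91.5 CPM in resistant and 70.7, 76.6 and 76.5 CPM in parental libraries (log2 0.37 ± 0.055, adjusted p = 2.25e-05). GSR had 264, 258 and 277 CPM in resistant and 413, 407 and 419 CPM in parental libraries (log2 -0.63 ± 0.039, adjusted p = 4.04e-10). GGT1 had 27 counts over the 6 libraries and was not tested.

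GLRX showed the largest fall of all members. Its level was 35.2, 30.0 and 30.3 CPM in resistant libraries and 158, 149 and 155 CPM in parental libraries, 4.84-fold lower (log2 -2.28 ± 0.061, adjusted p = 6.95e-15). No resistant library came near the lowest parental one. It has 3 named pseudogenes, and its exons overlap no other gene.

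Of the 5 transferase and peroxidase members tested, 3 were lower and 1 higher in resistant cells. GSTM3 fell, at 29.2, 26.4 and 27.8 CPM in resistant and 56.3, 47.3 and 53.8 CPM in parental libraries (log2 -0.92 ± 0.072, adjusted p = 8.69e-09), whereas GSTM4 overlapped between 6.46, 5.02 and 4.74 CPM (resistant) and 4.93, 5.54 and 4.99 CPM (parental) and was not called (adjusted p = 0.737). MGST1 was lower in resistant cells (806 ± 36.7 CPM) than in parental cells (1006 ± 6.62 CPM; log2 -0.32 ± 0.037, adjusted p = 1.08e-06). GPX2 fell and GPX4 rose. GPX2 had 1191, 1149 and 1070.2 CPM in resistant and 1599, 1582 and 1629.6 CPM in parental libraries (log2 -0.50 ± 0.038, adjusted p = 5.65e-09). GPX4 had 221, 188 and 175 CPM in resistant and 169, 162 and 168 CPM in parental libraries (log2 0.22 ± 0.064, adjusted p = 0.00651), and its first resistant library lay well above the other two.

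All 4 thioredoxin and peroxiredoxin members fell. TXN had 337, 320.1 and 309 CPM in resistant and 512, 509.8 and 532 CPM in parental libraries (log2 -0.69 ± 0.040, adjusted p = 1.95e-10). TXNRD1 fell further, with 881, 920.1 and 986 CPM in resistant and 1948, 1961 and 1923 CPM in parental libraries, a 2.09-fold fall (log2 -1.07 ± 0.038, adjusted p = 2.71e-13). SRXN1 had 12.2, 10.5 and 10.4 CPM in resistant and 17.0, 18.1 and 16.2 CPM in parental libraries. SRXN1 and PRDX1 were 1.55-fold and 1.57-fold lower (adjusted p = 2.22e-05 and 9.8e-10), PRDX1 at 372, 348 and 331 CPM in resistant and 557, 533 and 556 CPM in parental libraries. TXN has 7 named pseudogenes, and 24.9% of the exon bases of PRDX1 lie opposite MMACHC. Per kb of exon, TXNRD1 was 0.493 ± 0.049 times TXN in resistant libraries and 0.639 ± 0.021 times in parental libraries (SD, n = 3).

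Of the 5 quinone, carbonyl, epoxide and glucuronate members, UGDH fell the most, with 466, 509 and 495 CPM in resistant and 810.3, 815 and 816 CPM in parental libraries (log2 -0.73 ± 0.038, adjusted p = 3.49e-11). NQO1 had 696, 668 and 645 CPM in resistant and 827, 809 and 809 CPM in parental libraries (log2 -0.28 ± 0.036, adjusted p = 3.69e-06). CBR1 was lower, at 33.2, 25.5 and 30.0 CPM in resistant and 37.3, 35.0 and 36.8 CPM in parental libraries (log2 -0.30 ± 0.083, adjusted p = 0.00544), a call lost with library size alone. CBR3, at 1.46, 1.45 and 1.27 CPM in resistant and 2.31, 1.69 and 1.57 CPM in parental libraries, did not overlap but was not called (log2 -0.42 ± 0.25, adjusted p = 0.179). EPHX1 was called higher at 184, 164 and 156 CPM in resistant and 157, 147 and 145 CPM in parental libraries (log2 0.16 ± 0.056, adjusted p = 0.0184), although the groups overlapped, and the call was lost without parental library b (adjusted p = 0.0822) or c (adjusted p = 0.0964).

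Of the heme and iron genes, HMOX1 fell and FTL rose. HMOX1 had 772, 741 and 697 CPM in resistant and 936, 907 and 910.2 CPM in parental libraries (log2 -0.32 ± 0.039, adjusted p = 2.3e-06). FTL had 1542, 1414 and 1362 CPM in resistant and 1247, 1199 and 1234 CPM in parental libraries (log2 0.23 ± 0.041, adjusted p = 0.000123). FTH1, at 3129, 2868 and 2797 CPM in resistant and 2938, 2816 and 2879 CPM in parental libraries, was not called (95% interval of the log2 fold change -0.05 to 0.11), nor was BLVRB (log2 0.04 ± 0.074, adjusted p = 0.712). With library size alone FTH1 and BLVRB were called higher. Per kb of exon, FTH1 was 0.881 times FTL in resistant and 1.01 times in parental libraries.

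PGD fell the most of the pentose phosphate members. It had 219.6, 222 and 212 CPM in resistant libraries and 596, 583 and 584 CPM in parental libraries, a 2.70-fold fall with wide separation (log2 -1.43 ± 0.037, adjusted p = 5.51e-15). TALDO1 fell 1.38-fold, to 188 ± 12.9 CPM in resistant cells, against 260.3 ± 4.50 CPM in parental cells (adjusted p = 2.34e-07). TKT and ME1 were not called, with 95% intervals of the log2 fold change of -0.13 to 0.02 and -0.11 to 0.08. TKT was called lower without the first resistant library (log2 -0.09, adjusted p = 0.00353), and both TKT and ME1 turned to called increases with library size alone. Of the other targets, PIR rose, with 155, 153 and 148 CPM in resistant and 92.7, 91.8 and 94.0 CPM in parental libraries (log2 0.71 ± 0.044, adjusted p = 3.22e-10). OSGIN1 had 65.9, 56.4 and 57.2 CPM in resistant and 96.6, 98.2 and 99.2 CPM in parental libraries (log2 -0.71 ± 0.058, adjusted p = 1.4e-08). TRIM16 stood at 103, 98.5 and 92.3 CPM in resistant and 140.3, 135 and 136 CPM in parental libraries (log2 -0.49 ± 0.049, adjusted p = 1.8e-07).

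The members were chosen with earlier results of these data known, so the shares that follow are a description. Set side by side, 15 of the 33 members tested in both experiments were called lower in both (45.5%), against 7.72% of the 15655 genes tested in both. They were NFE2L2, KEAP1, GCLC, GCLM, GSR, GSTM3, GPX2, TXNRD1, SRXN1, PRDX1, NQO1, UGDH, PGD, TALDO1 and OSGIN1, with the resistance calls of GCLC and KEAP1 at the limits given above. For 4 of them, GCLM, TXNRD1, GSTM3 and OSGIN1, the test for a change over 1.5-fold called a fall in both. The estimated falls of GSR, SRXN1 and PGD were also over 1.5-fold in both, but that test called each in only 1 experiment. GSS and PIR were called higher in both (6.06%), against 7.11% of all genes, but with library size alone the plasmid calls of both were lost (adjusted p = 0.0511 for GSS and 0.0538 for PIR), as was that of GSS in the joint fit of 12 libraries (adjusted p = 0.07). Opposite calls were made for 8 members (24.2%), against 30.0% of all genes. Of these, GPX4, EPHX1 and FTL were lower with the plasmid and higher in resistant cells, and MAFG, GLRX, MGST1, CBR1 and HMOX1 were higher with the plasmid and lower in resistant cells. The calls of MAFG with the plasmid and of CBR1 and EPHX1 with resistance are among those lost under other settings. The 2 experiments share no library.

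The difference between the 2 changes was tested directly in 1 fit of all 12 libraries, as the change with the plasmid minus the change with resistance. The media and the way the tables were counted also go with the experiment, and their part was not tested. Of 34 members, 13 had a plasmid change above the resistance change, 13 had one below it and 8 were not called, beside 30.2% and 31.6% of 18516 genes, of which 61.8% were called. GLRX differed the most, by 2.87 ± 0.080 on the log2 scale (95% interval 2.70 to 3.04, adjusted p = 3.15e-17). Above the resistance change by the next largest amounts were PGD at 0.78 ± 0.042, CBR1 at 0.78 ± 0.098, HMOX1 at 0.74 ± 0.055 and TXN at 0.65 ± 0.052 (adjusted p = 1.37e-12, 7.67e-07, 3.15e-10 and 8.56e-10). Below it were GCLC at -1.74 ± 0.037 (adjusted p = 3.84e-19), GSTM4 at -1.69 ± 0.15 (adjusted p = 5.77e-09), EPHX1 at -1.04 ± 0.071 (adjusted p = 7.32e-11) and ME1 at -0.95 ± 0.051 (adjusted p = 1.64e-12). The ferritin chains belonged to the same side, FTL at -0.87 ± 0.067 (adjusted p = 4.6e-10) and FTH1 at -0.80 ± 0.060 (adjusted p = 2.78e-10). GGT1 was called at -1.81 ± 0.75 (adjusted p = 0.0429) on fewer than 100 counts, and the call was lost in most fits that left out a library.

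With TMM scaling and all libraries, no difference between the experiments was called for NFE2L2, GPX2 and GSR. The 95% intervals of the difference were -0.08 to 0.08 for NFE2L2, -0.11 to 0.11 for GPX2 and -0.16 to 0.02 for GSR on the log2 scale. KEAP1 and OSGIN1 were likewise not called (-0.24 to 0.01 and -0.31 to 0.01), and neither were GSTM3, BLVRB and CBR3. Whether these genes were called depended on the setting. With library size alone all 5 with an interval given were called, with differences of -0.18 for NFE2L2 (adjusted p = 0.000746), -0.18 for GPX2 (adjusted p = 0.00259), -0.25 for GSR (adjusted p = 7.3e-05), -0.30 for KEAP1 (adjusted p = 0.000148) and -0.33 for OSGIN1 (adjusted p = 0.000613). With the filter at 1 CPM GSR, KEAP1 and OSGIN1 were called (adjusted p = 0.0477, 0.0314 and 0.0433), and OSGIN1 also without plasmid replicate 1 (adjusted p = 0.0412). GSTM3 was called without parental library b (0.19, adjusted p = 0.0333) and BLVRB without resistant replicate 1 (0.17, adjusted p = 0.0165). With library size alone the median difference over all genes moved to -0.22, and 62.1% of all calls were then below 0, against 51.2%.

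**Figure D3:**
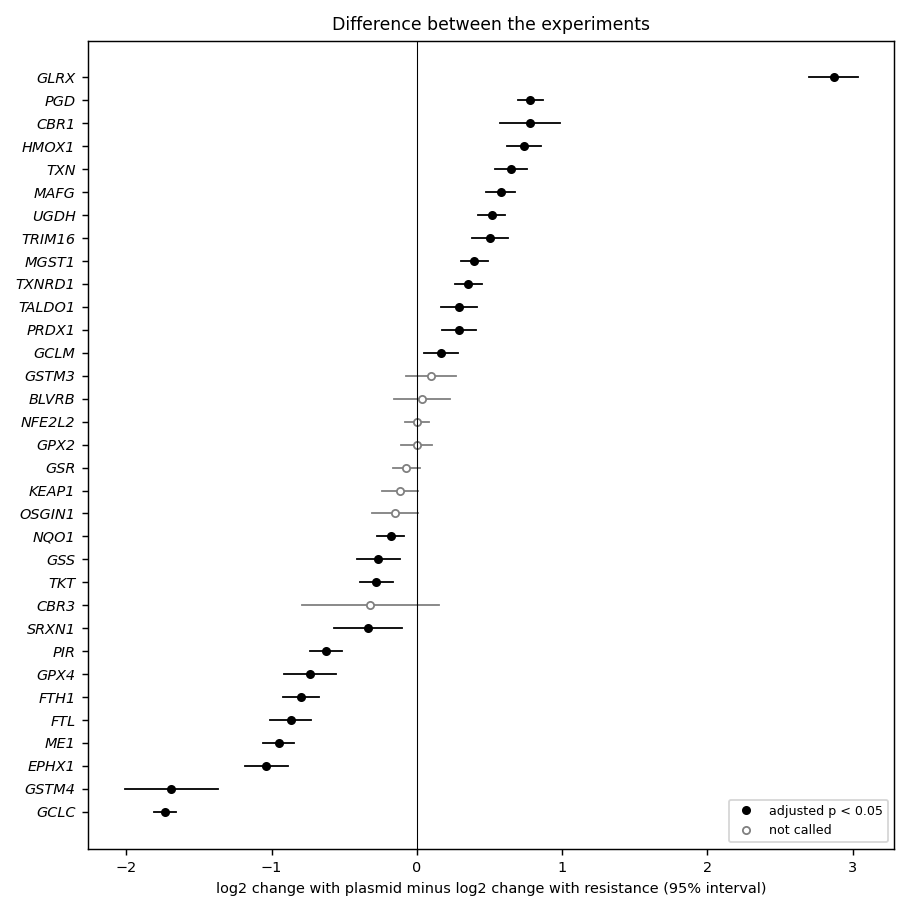
Log2 change with the ITGB4 plasmid minus log2 change with resistance (x axis) for each gene tested in both experiments, with its 95% interval, from 1 fit of 12 libraries, and open points for genes not called. GLRX stands far to the right, GCLC and GSTM4 far to the left, and NFE2L2 and GPX2 at 0, while GGT1, with few counts, is not drawn.

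The order of levels among the members was compared per kb of exon, and only within an experiment, since the tables were made separately. FTL and FTH1 were the 2 highest in every group: FTL reached 859 CPM per kb with the plasmid and 1315 with the vector, and 1639 in resistant and 1397 in parental cells. FTH1 had 778 (plasmid) and 1308 (vector), and 1444 (resistant) and 1418 (parental) CPM per kb. GPX2 ranked after them in vector, resistant and parental libraries, and PRDX1 did so in plasmid libraries at 408 CPM per kb, just over GPX2 at 393. GCLC ranked 16th with the plasmid and 8th with the vector, at 62.3 and 217 CPM per kb. It ranked 14th in resistant and 16th in parental libraries, at 79.5 and 84.4 CPM per kb. HMOX1 ranked 8th with the plasmid and 14th with the vector, and 4th in resistant and 5th in parental libraries. NFE2L2 exceeded KEAP1 in every group, with a ratio of 3.68 ± 0.15 with the plasmid and 3.52 ± 0.034 with the vector, and 3.47 ± 0.21 in resistant and 3.59 ± 0.032 in parental libraries (SD, n = 3), whose ranges overlapped within each experiment. GSTM4 and GGT1 were the lowest members with counts in every group.

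**Figure D4:**
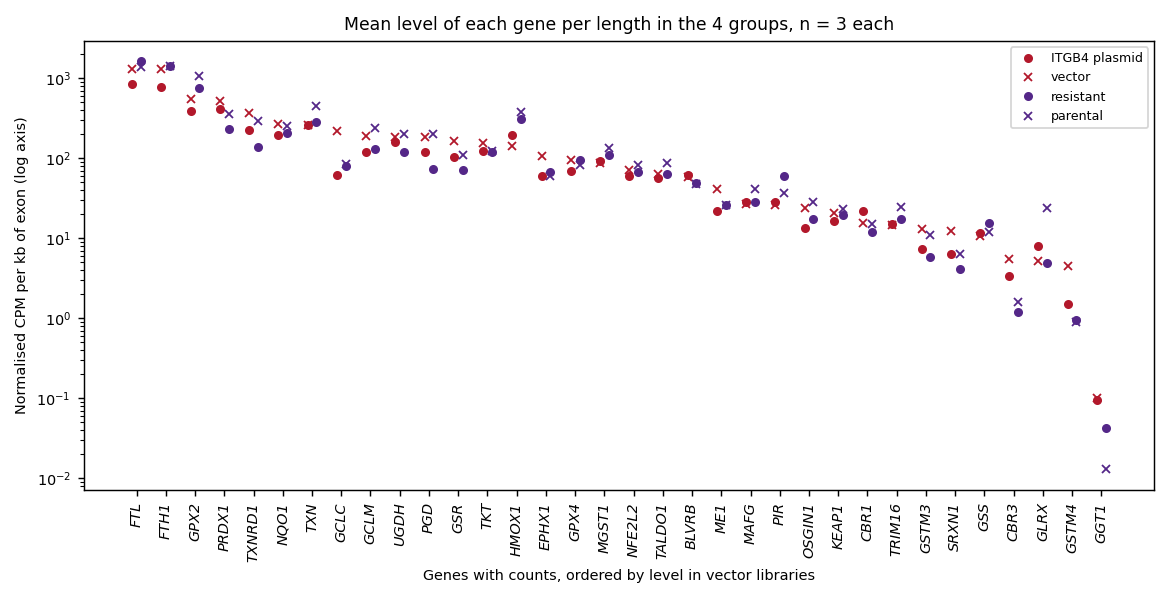
Mean level per gene (y axis, normalised CPM per kb of exon, log axis), ordered by the level in vector libraries, for ITGB4 plasmid and resistant (filled circles) and for vector and parental (crosses), n = 3 each. FTL and FTH1 lie highest in every group, GGT1 lies lowest, and GCLC lies far below its vector level with the plasmid.

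Calls were also counted by the promoter letters, as a description. Of the 12 genes with the core in a window, 7 were lower, 3 higher, 1 not called and 1 not tested with the plasmid. In resistant cells 7 of them were lower, 2 higher, 1 not called and 2 not tested. The 17 genes with a window and no core were all tested. Of these, 12 were lower, 3 higher and 2 not called with the plasmid, and 12 were lower, 2 higher and 3 not called in resistant cells. Over all genes tested the shares were 35.7% lower and 36.5% higher with the plasmid, and 27.7% lower and 26.8% higher in resistant cells. GCLM, PGD and TXNRD1, printed above, were lower in both experiments, and ME1 was called lower with the plasmid alone. The printed genes were chosen for the core and for a fall over 1.5-fold, so their calls say nothing about the core.

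Counting could not be checked equally well for all members. In 14 of them no exon base is shared with another gene and no pseudogene carries the gene's name. Of these, 9 were lower and 5 higher with the plasmid, and 8 were lower, 3 higher and 3 not called in resistant cells, beside the same shares of all genes. TRIM16 shares 28.7% of its exon bases with other genes, NFE2L2 20.9% and NQO1 17.7%.

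A wider list held 105 other genes of the same pathways. With the plasmid 51 of its 95 tested genes were lower and 24 higher, with a median log2 fold change of -0.13, beside 35.7% lower and 36.5% higher over all genes tested. In resistant cells 34 of 97 were lower and 43 higher, with a median of 0.11, beside 27.7% lower and 26.8% higher over all genes tested and a median of -0.32 for the 33 members tested. The counts of the list's groups below are to be read against the same shares of all genes. Of the genes that supply cystine and handle glutathione, 10 of 13 were lower and 1 higher with the plasmid, and 1 of 13 was lower and 7 higher in resistant cells. SLC7A11, the cystine importer, had 603, 719.6 and 709.9 CPM in plasmid and 1762, 1716 and 1758 CPM in vector libraries (log2 -1.36 ± 0.046, adjusted p = 6.08e-14), and in resistant cells its log2 fold change was 0.13 ± 0.045 (adjusted p = 0.0206). CTH, which makes cysteine from cystathionine, rose to 20.6, 21.7 and 20.2 CPM in resistant libraries, against 5.79, 6.51 and 5.95 CPM in parental ones (log2 1.78 ± 0.094, adjusted p = 4.83e-11). CHAC1, which degrades glutathione inside the cell, was higher with the plasmid (log2 1.15 ± 0.034, adjusted p = 1.19e-14) and lower in resistant cells (log2 -0.48 ± 0.047, adjusted p = 1.61e-07).

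Regulators of the pathway outside the 35 were lower in 7 and higher in 2 of 11 cases with the plasmid (35.7% lower and 36.5% higher over all genes), and lower in 7 and higher in 3 of 11 in resistant cells (27.7% and 26.8%). SQSTM1, an autophagy receptor that binds KEAP1, had 1107, 1053 and 1088 CPM in plasmid and 1987, 2064 and 2011 CPM in vector libraries, and 1466, 1459 and 1410.4 CPM in resistant and 1947, 1989.9 and 1966 CPM in parental libraries. Its log2 fold changes were -0.90 ± 0.024 (adjusted p = 3.16e-15) and -0.45 ± 0.031 (adjusted p = 1.56e-09). MAFF, a small MAF protein, fell with the plasmid (log2 -1.16 ± 0.031, adjusted p = 3.67e-15), and NFE2L3, an NRF2 relative, fell in resistant cells (log2 -0.64 ± 0.049, adjusted p = 5.19e-09).

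Outside the 35, the thioredoxin and peroxiredoxin genes were 9 lower and 4 higher of 18 with the plasmid (35.7% lower and 36.5% higher over all genes), and 3 lower and 13 higher of 18 in resistant cells (27.7% and 26.8%). TXNIP, which binds and inhibits thioredoxin, had 524, 545 and 541 CPM in plasmid and 141, 132 and 137 CPM in vector libraries (log2 1.97 ± 0.029, adjusted p = 1.38e-18), and in resistant cells it was not called, with a 95% interval of the log2 fold change of -0.07 to 0.07 (adjusted p = 0.994). SESN3, a sestrin, fell with the plasmid (log2 -1.70 ± 0.039, adjusted p = 3.52e-16) and rose in resistant cells (log2 0.86 ± 0.056, adjusted p = 7.32e-10), where SESN1 rose as well (log2 0.89 ± 0.061, adjusted p = 1.46e-09). The superoxide and catalase genes form another group of the list, to be read against the same shares. With the plasmid the 2 tested were lower, and in resistant cells 1 was lower and 2 higher of 3 tested. CAT, catalase, had 119, 123 and 112 CPM in plasmid and 424, 423 and 416 CPM in vector libraries, and 212, 217 and 201 CPM in resistant and 88.0, 86.4 and 85.8 CPM in parental libraries. It thus fell in one experiment (log2 -1.84 ± 0.033, adjusted p = 1.5e-17) and rose in the other (log2 1.28 ± 0.045, adjusted p = 2.03e-13), with no overlap in either. SOD2, mitochondrial superoxide dismutase, fell in resistant cells (log2 -1.03 ± 0.036, adjusted p = 1.72e-13), and SOD1, the cytosolic form, was called slightly lower with the plasmid (log2 -0.12 ± 0.043, adjusted p = 0.0186), a call lost in 4 of the 6 fits that left out a library.

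Of 16 wider transferases and peroxidases, 6 of 11 tested were lower and 2 higher with the plasmid, among them GPX8 (log2 -0.75 ± 0.042) and GSTZ1 (log2 -0.79 ± 0.063), both lower (adjusted p = 5.42e-11 and 7.06e-09). In resistant cells 2 of 12 were lower and 6 higher, with GSTO2 (log2 0.62 ± 0.074) and MGST3 (log2 0.46 ± 0.058) higher (adjusted p = 1.65e-06 and 3.61e-06). Of the 15 aldo-keto reductases, aldehyde dehydrogenases and conjugation genes tested, 8 were lower and 4 higher with the plasmid, and 10 were lower and 4 higher in resistant cells. AKR1B10, an NRF2-responsive aldo-keto reductase, rose with the plasmid (log2 1.45 ± 0.030, adjusted p = 1.06e-16) and fell in resistant cells (log2 -2.19 ± 0.048, adjusted p = 1.04e-15). AKR1C1 fell in resistant cells to 446, 421 and 408 CPM, against 1330.1, 1301 and 1312 CPM in parental libraries (log2 -1.63 ± 0.038, adjusted p = 1.8e-15). ALDH1A1, a retinal dehydrogenase, fell with the plasmid (log2 -2.70 ± 0.069, adjusted p = 1.81e-15).

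Iron handling outside the ferritins showed 3 of 11 lower and 6 higher with the plasmid (35.7% and 36.5% of all genes), and 8 of 11 lower and 3 higher in resistant cells (27.7% and 26.8%). SLC40A1, the iron exporter ferroportin, fell in both, with 147, 155 and 150.5 CPM in plasmid and 262, 266 and 263 CPM in vector libraries, and 63.3, 65.6 and 64.0 CPM in resistant and 210.5, 218 and 211 CPM in parental libraries. The log2 fold changes were -0.81 ± 0.028 (adjusted p = 7.85e-14) and -1.73 ± 0.044 (adjusted p = 4.01e-15). TFRC, the transferrin receptor that imports iron, fell with the plasmid (log2 -0.79 ± 0.028, adjusted p = 1.17e-13), and ACSL4, an acyl-CoA synthetase for polyunsaturated fatty acids, fell in resistant cells (log2 -1.43 ± 0.045, adjusted p = 5.2e-14). Of 14 wider pentose phosphate and NADPH genes tested, 6 were lower and 5 higher with the plasmid, and 2 were lower and 5 higher in resistant cells. IDH1, a cytosolic source of NADPH, and PHGDH, the first enzyme of serine synthesis, fell with the plasmid (log2 -0.85 ± 0.023 and -1.02 ± 0.029, adjusted p = 4.22e-15 and 8.1e-15). RBKS, ribokinase, was higher in resistant cells at a low level, 1.88 ± 0.140 CPM, against 0.557 ± 0.138 CPM in parental cells (log2 1.75 ± 0.30, adjusted p = 7.75e-05).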

How the data were processed

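Per the labels' protocols, a directional kit turned total RNA into libraries. The authors deposited raw counts per gene, 1 table for each experiment with 6 libraries. Per the file headers, read pairs of the overexpression experiment were counted over exons with featureCounts 2.0.1 on the Ensembl release 107 annotation of GRCh38, with no strand option. The submitters' processing notes name hg38 for both. For the resistance table, no aligner, counter, gene annotation or strand option is given in the sources used here. All 37 mitochondrial genes are at 0 in the overexpression table and hold 1.81% of the counts in the resistance table. No title names the parental columns, which were taken as parental since the rest of that table's columns are the resistant libraries.

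Genes passing filterByExpr were tested within each experiment (edgeR 4.0.16, R 4.3.3, TMM, quasi-likelihood test, Benjamini-Hochberg adjustment over all genes tested), and changes over 1.5-fold with glmTreat. The ± after a log2 fold change is its size over the square root of the F statistic. Exon lengths and positions are those of GENCODE 29. Members and gene lists were chosen with earlier results of these data known. From the wider list, the 2 called genes of each role with the smallest p and a mean of at least 1 CPM were named in each comparison, except 1 that is not reported here. The fits were also run on simulated data with far fewer genes changed than were called here, in equal numbers up and down. That simulation does not cover how the calls depend on scaling. Other settings were size factors, library size alone, DESeq2 1.42.0, other filters, a joint fit, a replicate block, leaving out mitochondrial genes, and leaving out each library. Every replicate pair differed by more than sampling noise (chi-square per degree of freedom 1.54 to 12.2). The p-values come from 3 libraries a group.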

Additional observations from a re-analysis of the deposited data

How the results depend on the processing

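The counts of lower members kept within 1.5 times under the size factors, library size alone, DESeq2, both filters, the joint fit, the replicate block and without mitochondrial genes. A test for changes over 1.5-fold left 11 lower and 0 higher with the plasmid, and 8 lower and 1 higher in resistant cells. Calls of higher members with the plasmid, 8 in the text, were 4 with library size alone and 5 in the joint fit, and those in resistant cells, 5 in the text, were 9 with library size alone. Leaving out a library gave 6 to 8 higher and 23 to 23 lower with the plasmid, 4 to 5 higher and 21 to 23 lower in resistant cells, and 24 to 27 members differing between the experiments. The higher calls lost with the plasmid were those of MAFG, GSS, BLVRB and PIR.

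Some signs turned. With library size alone the resistance changes of GCLC, TKT and ME1 were 0.078, 0.11 and 0.15, and the differences between experiments of NFE2L2, GCLM, GSTM3 and BLVRB were -0.18, -0.010, -0.083 and -0.14. NFE2L2 differed by -0.028 with the filter at 1 CPM, and GPX2 by 0.0037 with size factors. Over the fits that left out a library, values are given as ranges: with the plasmid GGT1 -0.34 to 0.0038 and TXN -0.048 to 0.0076, in resistant cells GSTM4 -0.072 to 0.16, BLVRB -0.077 to 0.11 and FTH1 -0.016 to 0.063, and as differences GPX2 -0.032 to 0.045, NFE2L2 -0.0026 to 0.031 and BLVRB -0.022 to 0.17. The cause was not tested.

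The replicate block, on the numbers of the titles, changed no member's call with the plasmid and gave 6105 higher and 5965 lower genes in all, against 6185 and 6049. Same-numbered deviations correlated at -0.017, -0.026 and -0.0058, so pairing by number was not shown. No paired analysis was possible because no parental title holds the heading of the parental columns, so their numbers could not be tied to samples, for resistant against parental. Depth limits GGT1 and CBR3, and a gene at 0 may lie under 3 counts, which is 0.0785 to 0.132 CPM per library.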
